A study of Homo sapiens with 6 samples.

Results

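The transcripts of 10 amino acid transporter genes were followed in Kelly cells after depletion of METTL3. The genes were chosen by name: SLC7A11, SLC7A5, SLC3A2, SLC1A4, SLC1A5, SLC7A1, SLC7A3, SLC38A1, SLC38A2 and SLC6A9. All 10 were found among the 19923 protein-coding genes of the count tables. Kelly cells are an established line from a human neuroblastoma, MYCN-amplified and of WT genotype per the labels. Cells had been transfected with lipofectamine RNAiMax and 20 µM siRNA, either a control siRNA (siControl, n = 3 libraries) or siRNA directed at METTL3 (siMETTL3, n = 3 libraries), and were collected after 72 hours. All libraries came from cells in RPMI1640 with 10% heat-inactivated serum and 2 mmol/L added L-glutamine, so both groups had the same supply of amino acids at the start. The labels do not say whether the libraries of a group came from separate cultures, and the p-values measure the spread between these libraries only.

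Amino acids cross the plasma membrane through carriers of several solute carrier (SLC) families. SLC3A2 (4F2hc, CD98) is a heavy chain that has no transport activity by itself and brings light chains to the cell surface, among them SLC7A5 (LAT1), which exchanges large neutral amino acids such as leucine, and SLC7A11 (xCT), which takes up cystine in exchange for glutamate. SLC1A4 (ASCT1) and SLC1A5 (ASCT2) exchange small neutral amino acids, and SLC1A5 is a main route for glutamine. SLC7A1 and SLC7A3 (CAT1 and CAT3) carry arginine and lysine, SLC38A1 and SLC38A2 (SNAT1 and SNAT2) bring in glutamine and alanine with sodium, and SLC6A9 (GLYT1) takes up glycine. Many of these genes are known targets of ATF4, the transcription factor of the response to amino acid shortage, and METTL3 carries out the methylation of adenosines in mRNA (m6A).

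Of the 9 transporters with enough counts to be tested, 5 fell and 1 rose in siMETTL3, and 3 did not pass the test. SLC7A11, the cystine carrier, fell to 43.6% of its control level, the furthest of the 9. SLC1A4, SLC3A2, SLC38A2 and SLC38A1 fell to between 74.4% and 88.0%, and SLC7A5 rose to 120% of control. These calls come from edgeR's quasi-likelihood test with Benjamini-Hochberg adjustment over all 15311 tested genes (FDR under 0.05), in which 37.8% of tested genes were called, 19.2% lower and 18.6% higher. The median log2 fold change of the 9 was -0.21, against -0.0021 over all tested genes. The members were chosen with earlier results of these data known, so these counts and this median are descriptions. Without siMETTL3 replicate 2, the count of lower members was 3 and that of higher members was 0; without siMETTL3 replicate 1 the count of higher members was also 0.

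**Figure D1:**
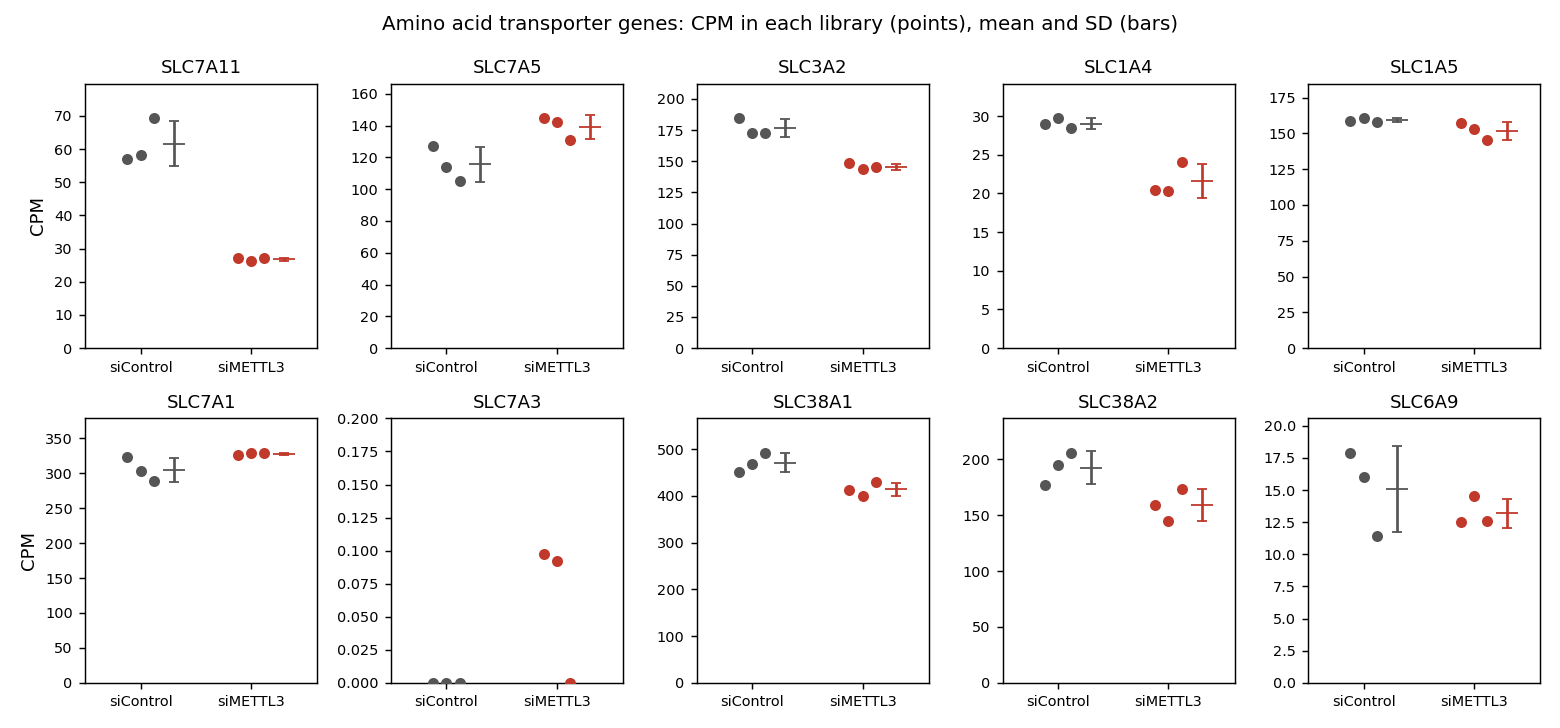
Level of each of the 10 transporter genes in CPM (the count scaled to library size, y axis, linear, from 0), with 1 point per library and a bar for the mean and SD of each group of 3. The siMETTL3 points of SLC7A11 lie at 26.2 to 27.1 CPM, below the control points at 57.1 to 69.4 CPM, and SLC7A3, shown as points only, is at or near 0 in every library.

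Total counts ranged from 15430000 to 21565013 per library, and the 10 genes together took 0.150% to 0.153% of them in siControl and 0.139% to 0.143% in siMETTL3. METTL3 itself was at 53.5, 52.8 and 56.2 CPM in siControl and at 32.99, 31.8 and 34.3 CPM in siMETTL3, a fall to 61.0% of control (log2 fold change -0.71, SE 0.070, edgeR FDR 4.68e-06). The cells were checked against markers: all 10 neuroblastoma genes of the list (such as HAND2, GATA3 and DBH) had at least 10 counts in every library, and their summed level was 6178 to 6626 CPM in siControl and 8828 to 9394 CPM in siMETTL3, most of it MYCN, DBH and CHGA. Not all of these markers were higher: ISL1 was at 99.9 to 111 CPM in siControl and at 41.5 to 48.2 CPM in siMETTL3, and CHGB at 81.6 to 83.8 and at 51.7 to 60.03 CPM. Whether these shifts had a part in the results was not tested. The summed fibroblast markers were at 90.1 to 104 and 92.7 to 101 CPM, most of it PDGFRB, while COL1A2, DCN and LUM had at most 8 counts in any library. Immune markers summed to at most 2.87 CPM. The Schwann sum (2.59 to 3.50 against 3.99 to 5.51 CPM) and the endothelial sum (5.64 to 7.001 against 7.14 to 9.84 CPM) were higher in every siMETTL3 library, and their part in the results was not tested. Most of the Schwann sum was SOX10, and most of the endothelial sum was VWF (3.85 to 5.21 against 6.66 to 8.76 CPM). Other endothelial markers did not rise: PECAM1 was at 0.651 to 1.13 against 0.194 to 0.643 CPM. KDR was at 0.664 to 1.21 against 0.194 to 0.735 CPM. In bulk RNA, fewer cells with a transcript and less of it per cell cannot be told apart.

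The light chain SLC7A11 (chromosome 4, 138164097 to 138242349, minus strand) had 1232, 1165 and 1045 counts in siControl replicates 1 to 3 and 557, 571 and 556 counts in siMETTL3 replicates 1 to 3. Relative to library size, these were 57.1, 58.3 and 69.4 CPM against 27.1, 26.2 and 27.1 CPM. The groups were far apart, and siControl replicate 3, the shallowest library, was the highest. The mean fell from 61.6 ± 6.75 CPM to 26.8 ± 0.487 CPM (SD, n = 3 each), a log2 fold change of -1.20 ± 0.084 (SE; edgeR FDR 2.39e-07). SLC7A11 was the 1 member that passed the test and was at least 2-fold lower, as were 0.607% of all tested genes, and 0.392% of tested genes had a lower log2 fold change. The change passed the test in all 16 alternative fits, with a log2 fold change of -1.11 without siControl replicate 3 and of -1.27 with an offset for intron length.

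The partner heavy chain SLC3A2 (chromosome 11, 62856102 to 62888875, plus strand) was measured at 185, 172 and 172 CPM in siControl and at 148, 143 and 145 CPM in siMETTL3. Every siMETTL3 library lay below every control library. The mean fell from 176 ± 7.04 to 146 ± 2.44 CPM (SD, n = 3 each), which left 82.5% of control (log2 fold change -0.28, SE 0.055, edgeR FDR 0.00138). This call held in all 16 alternative fits.

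SLC7A5, the light chain of the leucine carrier (chromosome 16, 87830023 to 87869507, minus strand), went the other way. It was at 127, 114 and 105 CPM in siControl and at 145, 142 and 131 CPM in siMETTL3. The groups did not overlap, but the lowest siMETTL3 library lay close to the highest control. The mean rose from 116 ± 11.02 to 139 ± 7.46 CPM (SD, n = 3 each), a log2 fold change of 0.27 ± 0.071 (SE; edgeR FDR 0.00939). The call was lost when siMETTL3 replicate 1 (FDR 0.0602) or replicate 2 (FDR 0.0510) was left out, and the FDR ranged from 0.000312 to 0.0602 over all alternatives. SLC7A5 has the pseudogene copies SLC7A5P1 and SLC7A5P2, so reads that match a copy as well could be lost from its count or added to it.

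The promoters of the 2 partners that changed in opposite directions, SLC3A2 and SLC7A5, and of SLC7A1 are shown because they were the members whose upstream sequence held a searched motif. RefSeq windows (GRCh38.p14) were found for 8 of the 10 members, not for SLC7A11 and SLC7A3. In the 250 bases before each start, both strands were searched for TGATGNAA (the core of the composite element bound by ATF4 with a C/EBP partner), TGACNNNGC (the core of the antioxidant response element) and CACGTG (the E-box bound by MYC family proteins). The stretches below run 5′ to 3′ on the strand of the gene, with the matching letters in capitals and any base in a GENCODE release 44 exon left off.
SLC3A2 (chr11:62881454-62881697, plus strand): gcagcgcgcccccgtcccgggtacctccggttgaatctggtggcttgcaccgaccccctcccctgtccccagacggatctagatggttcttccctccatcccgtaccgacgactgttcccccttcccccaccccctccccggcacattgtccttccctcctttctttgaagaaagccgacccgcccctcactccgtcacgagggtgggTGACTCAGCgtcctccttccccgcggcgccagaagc
SLC7A5 (chr16:87869508-87869757, minus strand): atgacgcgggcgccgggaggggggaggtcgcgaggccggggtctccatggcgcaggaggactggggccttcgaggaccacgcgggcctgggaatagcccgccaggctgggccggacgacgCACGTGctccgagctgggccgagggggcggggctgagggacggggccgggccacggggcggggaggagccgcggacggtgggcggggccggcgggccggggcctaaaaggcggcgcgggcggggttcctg
SLC7A1 (chr13:29595689-29595938, minus strand): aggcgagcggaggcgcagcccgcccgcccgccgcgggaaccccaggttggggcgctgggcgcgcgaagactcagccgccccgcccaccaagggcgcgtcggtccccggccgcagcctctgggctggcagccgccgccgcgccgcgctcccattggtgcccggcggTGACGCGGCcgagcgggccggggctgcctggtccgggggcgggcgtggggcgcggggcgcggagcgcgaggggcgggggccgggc

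The TGACNNNGC motif was found in SLC3A2, at 37 to 29 bases before the start, and in SLC7A1, at 85 to 77 bases before it, so in 2 of 8 members against 11.03% of 27305 promoter windows. The E-box was found in SLC7A5, at 130 to 125 bases before the start, so in 1 of 8 members against 6.49% of all windows. TGATGNAA was found in 0 of 8 members and in 3.19% of all windows. These are matches of letters in a short window only. For SLC3A2 and SLC38A1, the start used by RefSeq lies well inside the span over which reads were counted. The bases before those 2 spans were therefore not searched.

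The balance between the chains was read from ratios of counts within a library, which do not depend on how libraries are scaled. The log2 ratio of SLC7A11 to SLC3A2 was -1.69, -1.56 and -1.31 in siControl and -2.45, -2.45 and -2.42 in siMETTL3. The ratio therefore fell by 0.92 on the log2 scale (SE 0.11), to 0.529 times its control value, and the groups did not overlap. The log2 ratio of SLC7A5 to SLC3A2 was -0.54, -0.59 and -0.71 in siControl and -0.035, -0.013 and -0.15 in siMETTL3, a rise of 0.55 (SE 0.067). Between the light chains, the log2 ratio of SLC7A11 to SLC7A5 went from -0.91 ± 0.28 to -2.38 ± 0.091 (SD, n = 3 each), without overlap between the groups. Each of these 3 ratios had p = 0.1 in a two-sided exact permutation test of 3 against 3 libraries, the smallest this design allows, and an adjusted p of 0.125 over the 5 ratios tested, so none could pass 0.05.

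**Figure D2:**
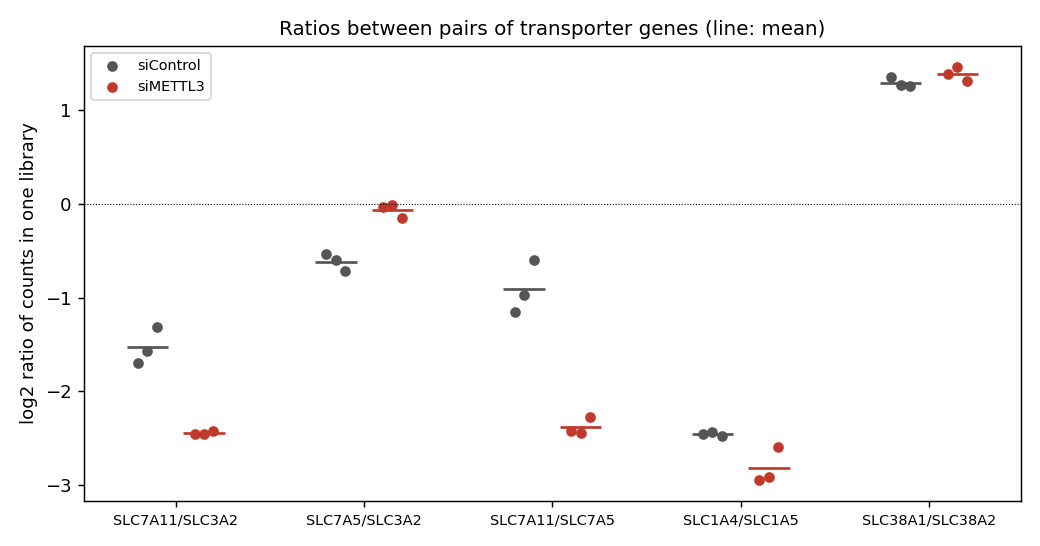
Log2 ratio of the counts of paired transporter genes within each library (y axis), for 5 pairs (x axis), with points for libraries and lines for group means. The ratio of SLC7A11 to SLC3A2 lies at -1.69 to -1.31 in siControl and at -2.45 to -2.42 in siMETTL3, while the points of SLC38A1 to SLC38A2 overlap.

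Among the exchangers of small neutral amino acids, SLC1A4 (chromosome 2, 64988477 to 65023865, plus strand) was at 28.9, 29.7 and 28.4 CPM in siControl and at 20.4, 20.3 and 24.1 CPM in siMETTL3. The groups were separate, with siMETTL3 replicate 3 above the other siMETTL3 libraries. The mean fell from 29.0 ± 0.667 to 21.6 ± 2.16 CPM (SD, n = 3 each), leaving 74.4% of control (log2 fold change -0.43, SE 0.091, edgeR FDR 0.00228), and the call held in all 16 alternative fits.

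Its paralog SLC1A5 (chromosome 19, 46774883 to 46788594, minus strand), the glutamine exchanger, was at 159, 161 and 158 CPM in siControl and at 157, 153 and 145 CPM in siMETTL3. Each siMETTL3 value was below each control value, by less than 1 CPM at the nearest pair. The log2 change came to -0.068 ± 0.055 (SE; edgeR FDR 0.362), and 2 SE on each side span -0.18 to 0.042. The log2 ratio of SLC1A4 to SLC1A5 went from -2.46 ± 0.021 to -2.82 ± 0.20 (SD, n = 3 each; exact permutation p = 0.1, adjusted p 0.125), without overlap between the groups.

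Both sodium-coupled carriers fell. SLC38A1 (chromosome 12, 46183063 to 46270017, minus strand), which had the most counts of the 10 genes, was at 452, 468 and 492 CPM in siControl and at 414, 400 and 429 CPM in siMETTL3. Its groups did not overlap, and the log2 change came to -0.18 ± 0.057 (SE; edgeR FDR 0.0209), or 88.0% of control. Leaving out siControl replicate 2 (FDR 0.0678), siMETTL3 replicate 1 (FDR 0.0866) or its replicate 2 (FDR 0.108) ended the call, in a range of 0.000731 to 0.108 over all alternatives.

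SLC38A2 (chromosome 12, 46358188 to 46372773, minus strand), the member of the family best known for its rise when amino acids are short, was at 177, 195 and 206 CPM in siControl and at 159, 145 and 173 CPM in siMETTL3. The highest siMETTL3 library was just below the lowest control library. The log2 change came to -0.27 ± 0.074 (SE; edgeR FDR 0.00983), or 82.6% of control, and the call was lost without siMETTL3 replicate 2 (FDR 0.0678, against 0.000656 to 0.0678 over all alternatives). The log2 ratio of SLC38A1 to SLC38A2 was 1.29 ± 0.053 in siControl and 1.39 ± 0.079 in siMETTL3 (SD, n = 3 each). This difference of 0.092 had an SE of 0.055 and p = 0.2 in the exact permutation test (adjusted p 0.2).

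Of the cationic amino acid carriers, SLC7A1 (chromosome 13, 29509414 to 29595688, minus strand) was abundant, at 323, 303 and 288 CPM in siControl and 326, 329 and 329 CPM in siMETTL3. The siMETTL3 values were nearly equal and just above the highest control. The log2 change came to 0.10 ± 0.057 (SE; edgeR FDR 0.169), and 2 SE on each side span -0.0095 to 0.22. It passed the test only without siControl replicate 1 (FDR 0.0424, against 0.0424 to 0.717 over all alternatives). SLC7A3 (chromosome X, 70925579 to 70931125, minus strand) had 0 counts in all siControl libraries and 2, 2 and 0 counts in the siMETTL3 libraries. The 0 counts of the siControl libraries allow a level of up to 0.139 to 0.194 CPM (3 counts of the total, counting error only), and more if a read pair entered as 2 counts. The gene was not tested, and its ratio to SLC7A1 was not computed.

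The glycine carrier SLC6A9 (chromosome 1, 43991500 to 44031467, minus strand) had the lowest level of the tested members and the widest control spread relative to its mean. It was at 17.9, 16.02 and 11.4 CPM in siControl and at 12.5, 14.5 and 12.6 CPM in siMETTL3. The groups overlapped, and the log2 change came to -0.21 ± 0.15 (SE; edgeR FDR 0.291); 2 SE on each side span -0.50 to 0.085. Without siControl replicate 1, the highest control, it was -0.069 (FDR 0.732), and without siControl replicate 3, the lowest, it was -0.36 and past the threshold (FDR 0.0131, against 0.0131 to 0.732 over all alternatives). The span of SLC6A9 holds 97.3% of that of CCDC24, a gene that rose from 2.63 ± 0.577 to 4.73 ± 0.282 CPM (SD, n = 3 each; log2 fold change 0.82, edgeR FDR 0.00560), so part of the counts may belong to either gene.

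**Figure D3:**
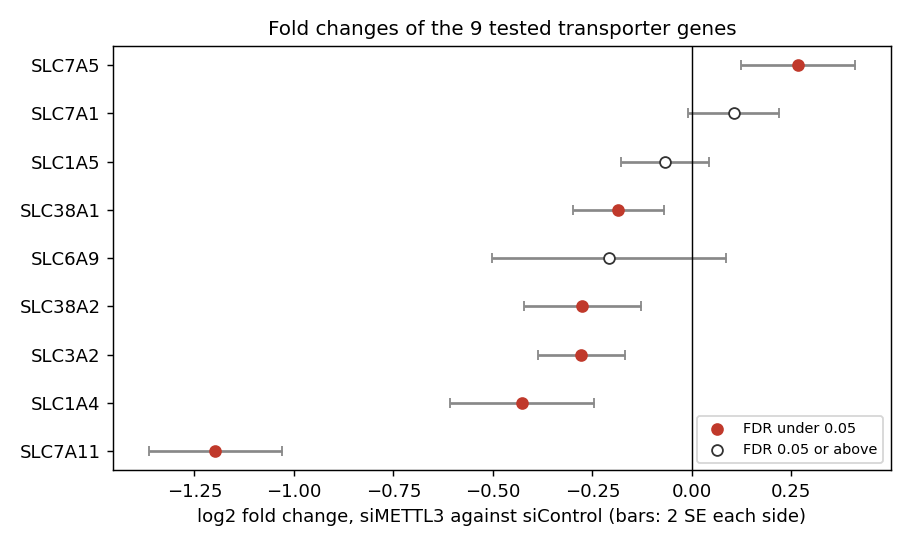
Log2 fold change of siMETTL3 against siControl (x axis) for the 9 tested transporter genes (y axis), with bars of 2 SE on each side and filled points for genes at an FDR under 0.05. SLC7A11 lies at -1.20, well to the left of the others, which lie between -0.43 and 0.27.

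In 8 of the 9 tested members the libraries of the groups did not overlap, where 49.9% of all tested genes showed no overlap. Of these members 6 were lower, against 25.1% of all tested genes, and 2 were higher, against 24.8%. In the same number of members, 8 of 9, siControl replicate 3 was the highest (3 members) or the lowest (5 members) of the controls, as it was in 77.8% of all tested genes. In the fits without this library, SLC7A11 had a log2 fold change of -1.11 and SLC6A9 of -0.36.

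Levels of different members were compared per kilobase (kb) of the canonical transcript in GENCODE release 44. In siControl, SLC3A2 was highest at 93.6 ± 3.73 CPM per kb (SD, n = 3), followed by SLC38A1 at 58.1 ± 2.50, SLC1A5 at 55.2 ± 0.457, SLC7A1 at 41.5 ± 2.36, SLC38A2 at 40.1 ± 3.04 and SLC7A5 at 25.4 ± 2.42. SLC7A11 at 6.39 ± 0.700, SLC1A4 at 6.36 ± 0.146 and SLC6A9 at 4.71 ± 1.04 CPM per kb were the lowest. The library values of SLC7A1 and SLC38A2 overlapped, as did those of SLC7A11 and SLC1A4, and the lowest SLC38A1 value (55.8) was next to the highest SLC1A5 value (55.7), so these neighbours were not separated beyond their spread. In siMETTL3, SLC7A11 was at 2.78 ± 0.050 CPM per kb, below SLC6A9 at 4.11 ± 0.358 and SLC1A4 at 4.73 ± 0.474, so that it was the lowest of the 9 on this scale. Since the counts cover introns too, the order depends on the length used: per kb of the whole gene span, SLC38A2 (13.2 CPM per kb) and SLC1A5 (11.6) were the highest in siControl and SLC6A9 (0.378) the lowest, and in siMETTL3 SLC6A9 (0.330) was still below SLC7A11 (0.342).

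**Figure D4:**
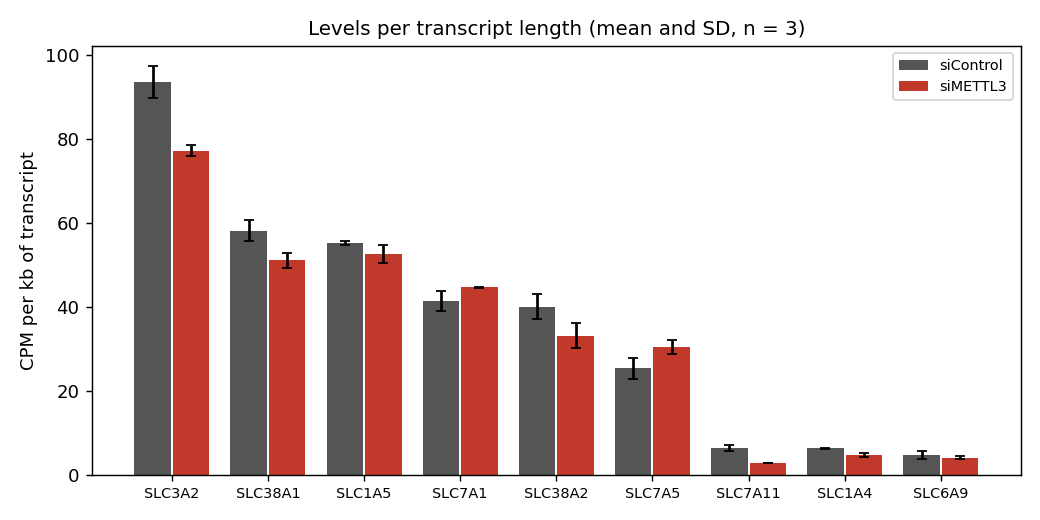
Level per transcript length (y axis, CPM per kb of canonical transcript, linear, from 0) of the 9 tested transporter genes, with bars for group means and error bars for the SD of 3 libraries. SLC3A2 is the highest in both groups (93.6 and 77.3 CPM per kb), and SLC7A11 goes from 6.39 to 2.78 CPM per kb.

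The members share little in gene structure. Canonical transcripts of the 9 tested members were 1885 (SLC3A2) to 9645 (SLC7A11) bases long, with a median of 4563 against 3359 over all tested genes with such a transcript, and their median intron length was 31774 against 25760 bases. GGACT, which is GGACU in RNA and a frequent form of the sequence that the METTL3 complex methylates, was counted on the transcript strand. SLC7A11 held 3 copies (0.311 per kb, with 12.2% of tested genes below it) and SLC38A2 held 1 (0.209 per kb). SLC3A2 held 4 (2.12 per kb, with 93.1% of tested genes below it), SLC1A5 held 5 (1.73 per kb), SLC38A1 held 11 (1.36 per kb) and SLC7A5 held 5 (1.10 per kb). The median was 1.23 per kb in the tested members and 0.929 per kb over all tested genes. These are counts of letters, and no m6A signal was analysed here.

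The genes with the profile nearest to each of the 3 chains over the 6 libraries were found among 11764 genes (average log2 CPM at or above 3), by the root mean square difference of centred log2 CPM. For SLC7A11 these were CD44 (difference 0.068), ISL1 (0.082), which is one of the neuroblastoma markers above, and SESN3 (0.084). For SLC3A2 they were POLB (0.013), ATRIP (0.019) and SNRPC (0.020). For SLC7A5 they were SCAMP2 (0.017), MAP2K2 (0.019) and CIT (0.020). The nearest genes of SLC7A11 were farther from it than those of the other chains were from them. The distance includes the difference between the groups, and only 0.392% of tested genes had a lower log2 fold change than SLC7A11. A larger distance for SLC7A11 is therefore no separate finding. CD44 and SESN3 are also in the lists below, where the same values are used.

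Other genes of amino acid handling were counted from lists of known pathway genes, which were drawn up with earlier results of these data known, so their counts are descriptions and not independent evidence of a direction. The shares over all tested genes, 19.2% lower and 18.6% higher, are the background for each list. GCN2 (EIF2AK4) is switched on by uncharged tRNA. The list of the GCN2-ATF4 response also holds EIF2AK1, EIF2AK2 and EIF2AK3, which are kinases other than GCN2. Of its 21 tested genes, 11 fell, 0 rose and 10 did not pass, with a median log2 fold change of -0.29. EIF2AK4 had a log2 fold change of -0.074 and did not pass (edgeR FDR 0.379). EIF2AK1 was among the genes that fell (-0.29, edgeR FDR 0.00130). ATF4 fell from 268 ± 3.66 to 150 ± 5.28 CPM (SD, n = 3 each; log2 fold change -0.84, edgeR FDR 1.17e-07). ASNS, which makes asparagine, had a log2 fold change of -1.03 (edgeR FDR 8.56e-08), and the transcription factor ATF3 one of -1.26 (edgeR FDR 4.19e-07). CHAC1, which breaks down glutathione, had one of -1.80 (edgeR FDR 2.00e-06).

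Cystine taken up by SLC7A11 is a supply of cysteine for glutathione. Of 12 genes listed for glutathione and NRF2, 6 fell and 1 rose (median log2 fold change -0.15, all-gene shares 19.2% and 18.6%). The list also holds KEAP1 and CD44, which are not genes of glutathione synthesis. The 5 that did not pass were NFE2L2 (log2 fold change -0.12), GCLC (-0.042), GCLM (0.065), NQO1 (-0.10) and SRXN1 (-0.0071). CD44, whose variant form is known to stabilise SLC7A11 at the membrane, fell from 20.1 ± 2.52 to 8.44 ± 0.754 CPM (SD, n = 3 each; log2 fold change -1.24, edgeR FDR 5.13e-06). GPX4, which uses glutathione to reduce lipid peroxides, had a log2 fold change of -0.60 (edgeR FDR 8.56e-05), and TXNRD1, whose span overlaps EID3, and KEAP1 had -0.22 and -0.27. HMOX1, a classical NRF2 target, went from 8.38 ± 0.715 to 11.7 ± 1.38 CPM (SD, n = 3 each; log2 fold change 0.47, edgeR FDR 0.0111), a call lost without siMETTL3 replicate 3 (FDR 0.0672). The KEAP1 call was lost when siMETTL3 replicate 1 was left out (FDR 0.0570).

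Of 33 genes through which mTORC1 senses amino acids, 9 fell and 5 rose (all-gene shares 19.2% and 18.6%). Their median log2 fold change was 0.0029, near the -0.0021 over all tested genes. The Sestrins, which inhibit mTORC1 and of which SESN2 binds leucine, all fell: SESN3, SESN2 and SESN1 had log2 fold changes of -1.08, -0.74 and -0.33 (edgeR FDR 2.78e-07, 1.17e-05 and 0.00522). MLST8, an mTOR partner whose span overlaps BRICD5, had a log2 fold change of -0.42. ITFG2, RRAGD, SEC13 and RPTOR had log2 fold changes of 0.34, 0.26, 0.23 and 0.38. The ITFG2 span overlaps NRIP2, TEX52 and FOXM1, of which TEX52 (log2 fold change 1.51, edgeR FDR 0.000370) and FOXM1 (0.28, edgeR FDR 0.00245) also rose, and reads shared with them cannot be told apart. RPTOR passed the test in only 9 of 16 alternative fits and SEC13 in 13. Without siControl replicate 2 or siMETTL3 replicate 1 the count of higher genes in this list was 2, and without siMETTL3 replicate 2 it was 3, with 4 lower.

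**Figure D5:**
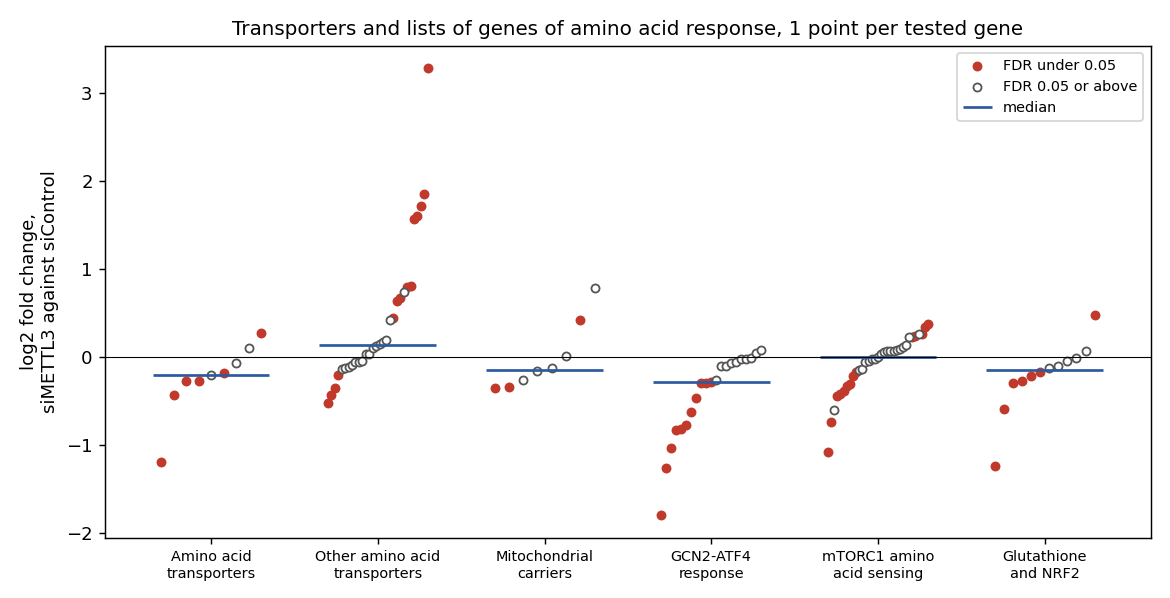
Log2 fold change of siMETTL3 against siControl (y axis) for every tested gene of 6 lists (x axis), with filled points at an FDR under 0.05 and a line at the list median. The medians are -0.21 for the 9 tested transporters, 0.14 for the 30 tested other amino acid transporters and -0.29 for the GCN2-ATF4 response.

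Of 42 other amino acid transporters, 30 had enough counts to be tested, and 10 of these rose and 4 fell (all-gene shares 18.6% and 19.2%). With at least 10 counts required in every library, 7 rose and 4 fell. The 3 that then dropped out, SLC6A19, SLC1A6 and SLC1A7, had entered the test through their siMETTL3 libraries, so the count of 10 does not describe all 42 genes. SLC6A17, a vesicular carrier of neutral amino acids in neurons, rose from 14.9 ± 0.609 to 45.2 ± 2.21 CPM (SD, n = 3 each; log2 fold change 1.599, edgeR FDR 1.57e-08). SLC6A7, a proline carrier, had a log2 fold change of 1.57 (edgeR FDR 2.97e-06), and its span overlaps CAMK2A, which rose by 1.87 on the log2 scale. SLC7A14, a lysosomal relative of the cationic carriers, had one of 0.80 (edgeR FDR 4.90e-06), and all of its span lies in that of AC026316.4, which had a log2 fold change of 0.77 (edgeR FDR 4.01e-06). Both may count the same reads. SLC3A1, the heavy chain related to SLC3A2, had a log2 fold change of -0.52 (edgeR FDR 0.000135). Of its span, 97.4% lies in that of AC013717.1, which also fell (log2 fold change -0.29, edgeR FDR 0.00197). The span also overlaps PREPL, which had a log2 fold change of -0.45, so the fall of SLC3A1 may rest on reads shared with these genes. SLC1A3, a glutamate carrier, had -0.36, the neutral amino acid carrier SLC6A15 had -0.43 and the cationic carrier SLC7A2 had -0.21. The call of SLC7A2 was lost without siMETTL3 replicate 2 (FDR 0.0594).

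Of 8 tested mitochondrial carriers of amino acids, 2 fell and 1 rose, a share near the 37.8% of all tested genes called in either direction. SLC25A44, which imports branched-chain amino acids, had a log2 change of 0.42 (edgeR FDR 0.00314). The ornithine carrier SLC25A15 had -0.35 (edgeR FDR 0.00104) and SLC25A38, which carries glycine, had -0.34 (edgeR FDR 0.0221). The SLC25A38 call was lost, and 1 carrier was lower, when siControl replicate 2 (FDR 0.129), siMETTL3 replicate 1 (FDR 0.0783) or its replicate 2 (FDR 0.116) was left out. Without siControl replicate 3 the carriers numbered 4 lower and 2 higher.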

How the data were processed

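RNA was measured by RNA-seq in 6 libraries. TRIzol was used for extraction per the labels' protocols, poly(A) RNA was selected and cDNA libraries were made with a SMART kit. The submitters' processing notes name Trimmomatic 0.36, HISAT2 2.1.0 and GRCh38. The authors deposited raw read counts per gene, made per the file headers with featureCounts v1.5.3 and a protein-only GENCODE release 33 annotation, over whole gene spans with introns, with a read over several genes counted for each and no strand or fragment option. Among genes with 1 to 10 counts, 75.4% to 82.2% of counts were even in each library, so a read pair may enter as 2 counts. Groups and replicate numbers came from the sample titles. The file headers name the alignments as input, and those of siMETTL3 as siMettl3B; the labels explain neither term.

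Here, genes were filtered with filterByExpr, scaled by TMM and tested with edgeR 4.0.16 (R 4.3.3; robust glmQLFit, glmQLFTest) over all 6 libraries without covariates. The SE was taken as |log2 fold change| over the root of F, and CPM are relative to TMM-scaled library size. Count ratios were also taken with 0.5 added to each count. Ratios were tested with SciPy 1.17.1. Libraries of 1 group differed by a chi-square of 3.05 to 16.1 per degree of freedom, so none was a duplicate within sampling noise. KICS2 was found as C12orf66. Some genes are not reported here. Canonical transcripts were found for 95.1% of tested genes. The members and lists were chosen with earlier results of these data known. All 10 members and METTL3 are named whatever their result, as are ATF4 and up to 4 genes per list and direction with the smallest FDR. The 5 genes of the glutathione and NRF2 list that did not pass are named too. To show what the lists hold, GSS, EIF2AK1, EIF2AK2, EIF2AK3, EIF2AK4, SLC1A1, SLC6A5, SLC7A4 and SLC7A7 are also named. Alternatives were RLE, upper quartile and total count scaling, limma-voom (limma 3.58.1), DESeq2 1.42.0, no filter or a minimum of 10 counts per library, a replicate block, an offset for intron length (loess) without and with the block, and each library left out in turn.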

Additional observations from a re-analysis of the deposited data

How the results depend on the processing

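None of the 9 tested members changed direction in any of the 16 alternative fits, and in the 10 fits with all 6 libraries all 90 values of the members kept their side of the threshold; with a library left out, 6 of 54 lost the call and 2 gained it. The count of lower members went from 3 to 6 and of higher members from 0 to 2 when a library was left out. For the lists these ranges were 11 to 12 lower and 0 higher (GCN2-ATF4), 4 to 6 lower and 0 to 1 higher (glutathione and NRF2), 4 to 10 lower and 2 to 6 higher (mTORC1 sensing), 3 to 5 lower and 9 to 12 higher (other transporters), and 1 to 4 lower and 1 to 2 higher (mitochondrial carriers). With at least 10 counts required in every library, 2 mitochondrial carriers were higher. The cause was not tested. Over all genes, leaving out a library gave 2091 to 3178 higher and 2119 to 3216 lower genes. The log2 ratio of SLC7A11 to SLC3A2 changed by -1.004 to -0.81 and that of SLC7A5 to SLC3A2 by 0.50 to 0.59 when a library was left out. The labels do not say whether equal replicate numbers mark paired libraries. Deviations from the group means correlated at 0.040, 0.049 and 0.067 for equal numbers. For unequal numbers the correlations were -0.064 to 0.026, all below those for equal numbers. These values are small and do not settle whether the libraries were paired. Under a replicate block, 3047 genes were higher and 3119 lower, with 5 lower members and 1 higher, and no member changed its call. The ratio of SLC7A3 to SLC7A1 and another pseudocount on log values were not run, the first for lack of counts and the second because the tables hold counts. Depth limits SLC7A3.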

Other observations

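Among the 30 tested of the 42 other transporters, 5 that were below 5 CPM in siControl passed the test. SLC1A1, SLC6A5, SLC7A4 and SLC7A7 were also below 5 CPM in siControl and did not pass. Over all tested genes, at any level, 37.8% passed. For SLC6A19, SLC1A6 and SLC1A7, which entered the test through their siMETTL3 libraries, a pass was nearly bound to be in the higher direction. Their direction is therefore no finding. SLC6A7 and SLC38A3 had at least 46 counts in every library and could also have been lower. The values of all 5 are given as a description. SLC6A19, SLC1A6 and SLC1A7 were not tested with at least 10 counts required in every library. SLC6A19, a carrier of neutral amino acids best known from gut and kidney, had 14, 12 and 2 counts in siControl and 108, 100 and 94 in siMETTL3 (log2 fold change 3.28, SE 0.33, edgeR FDR 5.45e-06). The glutamate carriers SLC1A6 and SLC1A7 had 13, 12 and 4 and 8, 10 and 6 counts in siControl. In siMETTL3 they had 30, 42 and 34 and 36, 33 and 28 counts (log2 fold changes 1.72 and 1.85, edgeR FDR 0.00241 and 0.00128). SLC38A3, a glutamine carrier, went from 92, 76 and 46 to 103, 132 and 132 counts (log2 fold change 0.64, edgeR FDR 0.0133), a call held in 14 of 16 alternative fits, and SLC6A7 is described above. SLC1A6, SLC1A7 and SLC38A3 were singled out after their values were seen, and counts this low over a gene span with introns say little about spliced mRNA.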
